A study of Homo sapiens with 9 samples.

Results

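The genes of osteopontin (SPP1), of 3 galectins (LGALS1, LGALS3 and LGALS8) and of the cell surface receptor CD44 were followed in 9 RNA-seq libraries of TCam-2 cells, a human testicular seminoma cell line. The members were picked by symbol from the authors' normalized table and joined to the same row of the count table, which gave 5 genes of the 63856 listed. The study itself had listed SPP1 and LGALS3 as upregulated on these libraries, and LGALS1, LGALS8 and CD44 were put beside them with earlier results of these data known. Their levels and fold changes are therefore given as a description, without p-values. The libraries formed 3 groups of 3 biological replicates. WT cells were not modified. Cells with the activated ESX1 gene (ESX1) received dCas9-VPR, a nuclease-dead Cas9 fused to transcription activators, with guide RNAs directed at the ESX1 promoter. The negative control (NC) received the guide vector with nonspecific guide RNAs, and whether it also received dCas9-VPR is not given in the sources used here. The transfected cells were taken after selection with puromycin and induction with doxycycline. Only part of these cells were GFP-positive, and whether WT cells received puromycin or doxycycline is not stated. NC against WT therefore differs by transfection and possibly by these agents. In bulk RNA, fewer cells with a transcript and less transcript per cell cannot be told apart.

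Osteopontin is a secreted, acidic phosphoprotein of bone matrix and many other tissues, which binds integrins through an arginine-glycine-aspartate motif and is also a ligand of CD44. Galectins are lectins that bind beta-galactosides on glycoproteins. Galectin-1 forms homodimers, galectin-3 joins its carbohydrate recognition domain to a long proline- and glycine-rich tail, and galectin-8 carries a pair of recognition domains on one chain. CD44 is the main cell surface receptor of hyaluronan, and its gene is spliced into many isoforms. The counts per gene do not separate these isoforms.

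The total count per library ranged from 5212804 (ESX1 replicate 3) to 10644408 (WT replicate 3). The share of counts from mitochondrial genes was 19.2 to 19.87% in ESX1, 14.45 to 15.25% in NC and 17.02 to 18.33% in WT, so that the groups did not overlap. The part of this difference in the values below was not tested. ESX1 itself had 562, 554 and 170 counts in the ESX1 libraries and between 27 and 35 in the 6 control libraries. All 10 seminoma markers examined (SOX17, TFAP2C, PRDM1, POU5F1, NANOG, NANOS3, KIT, PDPN, PRAME and ALPL) were detected in every library. Their summed level was 3710 to 4600 normalized CPM in WT, 2940 to 3170 in NC and 1710 to 2050 in ESX1. Normalized CPM are counts divided by library size (CPM) after scaling of the libraries with edgeR's TMM factors. WT replicate 1 lay nearer to NC than the other WT libraries did, and still nearest to its own group. Its mean correlation of log2 CPM was 0.9562 with the other WT libraries and 0.9509 with NC. For WT replicates 2 and 3 the mean correlation with NC was 0.9397 and 0.9395. Over the 973 genes called between NC and WT, WT replicate 1 was the WT library nearest to the NC mean in 62.9%, against 17.5% for WT replicate 2 and 19.6% for WT replicate 3. Results that rest on WT replicate 1 are given with and without it.

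SPP1, which encodes osteopontin, had the highest level of the members after activation of ESX1. Its normalized CPM were 296.4, 206.6 and 213.4 in ESX1 replicates 1, 2 and 3. They were 45.5, 46.6 and 46.4 in NC and 40.4, 11.8 and 3.87 in WT. The ESX1 libraries were all above the NC libraries, which lay close together, and the NC libraries were all above the WT libraries. The means were 239 ± 49.98 (SD, n = 3) in ESX1, 46.2 ± 0.595 in NC and 18.7 ± 19.2 in WT. SPP1 was 12.7-fold higher in ESX1 than in WT (log2 fold change 3.67, standard error 0.455) and 5.17-fold higher than in NC (2.37, standard error 0.420). NC was 2.45-fold above WT (1.29, standard error 0.439). WT replicate 1, with 370 counts against 81 and 37 in the other WT libraries, lay near the NC level. When it was left out, ESX1 exceeded WT by 4.99 and NC exceeded WT by 2.62 on the log2 scale. When WT replicate 3, the lowest, was left out instead, NC exceeded WT by 0.79.

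**Figure D1:**
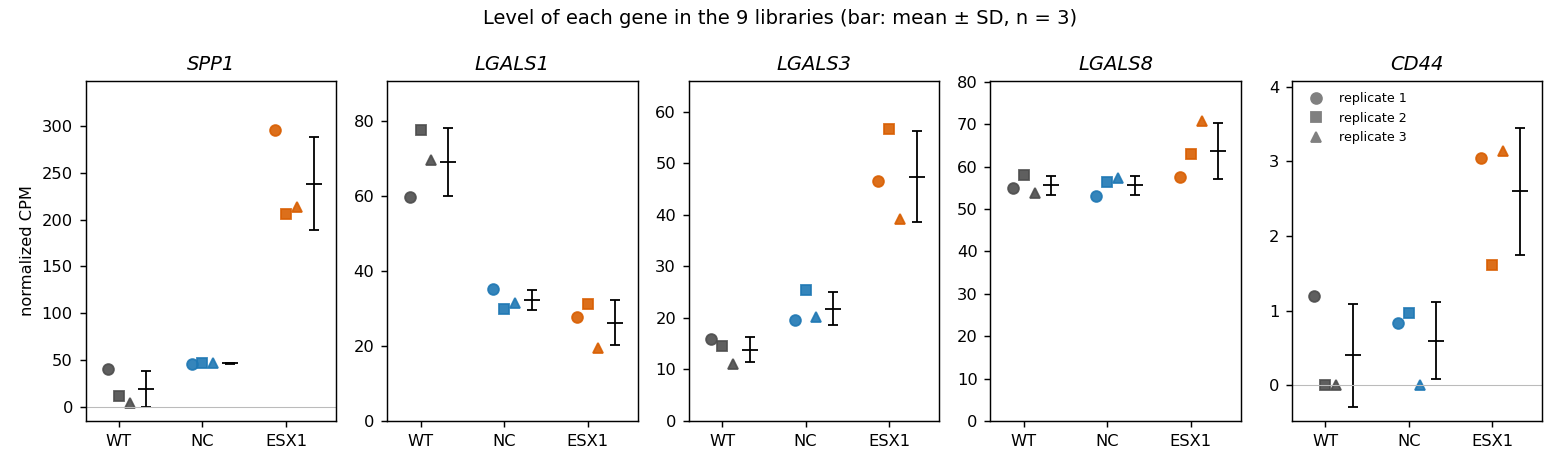
Normalized CPM (vertical axes, a scale of its own for each gene) of the 5 genes in the WT, NC and ESX1 libraries. Each symbol is a library, its shape gives the replicate, and the bars show the mean ± SD of 3. SPP1 lies between 206.6 and 296.4 in ESX1 and at most at 46.6 elsewhere, LGALS1 is highest in WT, and CD44 stays at or below 3.14.

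SPP1 (ENSG00000118785.13) lies on chromosome 4 (GRCh38, plus strand), between 87975650 and 87983426, and 0 of its 2321 exon bases are shared with another listed gene. The sequence just upstream is shown because SPP1 changed furthest, with each TAAT (the core that homeodomain proteins such as ESX1 commonly bind) and each AACCACA (the motif of RUNX factors) in capitals. It covers chr4:87975464-87975649, plus strand, of RefSeq on GRCh38.p14, up to the first exon base in the count table's annotation.
SPP1 upstream: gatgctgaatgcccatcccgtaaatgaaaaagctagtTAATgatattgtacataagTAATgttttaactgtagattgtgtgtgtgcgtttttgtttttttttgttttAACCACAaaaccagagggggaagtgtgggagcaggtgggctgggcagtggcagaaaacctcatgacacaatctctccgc
In the 250 bases before the RefSeq start, both strands searched, SPP1 held 2 matches to TAAT, at 213 and 194 bases from the start, and 1 to AACCACA, at 143 bases. Of 35116 such windows in RefSeq, 47.4% held TAAT and 3.65% held AACCACA. The longer form TAATTA, present in 4.35% of windows, was not found in that of SPP1. GGAA, the core motif of ETS factors, had 1 match in SPP1, at 125 bases. It was present in 92.7% of windows, with a median of 3 matches. The windows of LGALS3 and CD44 are not like that of SPP1, since 208 and 250 of their 250 bases lie in annotated exons of the count table, against 64 for SPP1. The window of LGALS3 held 0 matches to TAAT and that of CD44 held 1. GGGCGG, the GC box, was found 3 times in LGALS3 and 2 times in CD44 but not in SPP1, with 42.6% of windows holding it. The GC content was 44.8% for SPP1, 78.8% for LGALS3 and 62.4% for CD44, beside a median of 58.0% over all windows. LGALS8 has 3 starts in the table and LGALS1 has none, and neither was searched. A match is a description of letters in the window and not a site of binding.

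LGALS3, the gene of galectin-3, had the same order of groups as SPP1, over a smaller range. It had 46.5, 56.6 and 39.2 normalized CPM in the ESX1 replicates, 19.6, 25.5 and 20.2 in NC and 15.9, 14.6 and 11.1 in WT. None of the groups overlapped. The means were 47.4 ± 8.77 (SD, n = 3) in ESX1, 21.8 ± 3.24 in NC and 13.9 ± 2.51 in WT. ESX1 cells were 3.44-fold above WT (log2 fold change 1.78, standard error 0.186) and 2.19-fold above NC (1.13, standard error 0.178), and NC was 1.57-fold above WT (0.65, standard error 0.188). Without ESX1 replicate 2, the highest of the group, the value against NC was 0.98, just under 2-fold. LGALS3 (ENSG00000131981.15) lies on the plus strand of chromosome 14 from 55124110 to 55145413 and shares 0 exon bases with another gene.

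**Figure D2:**
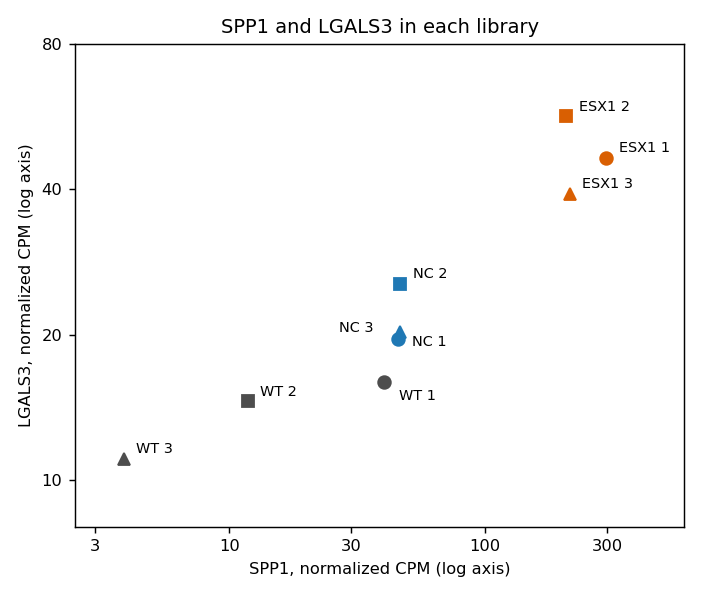
Normalized CPM of SPP1 (horizontal, log axis) and LGALS3 (vertical, log axis) in each of the 9 libraries, labelled by group and replicate. The ESX1 libraries sit at the upper right, the NC libraries lie between 19.6 and 25.5 normalized CPM of LGALS3, and WT replicate 1, at 40.4 normalized CPM of SPP1, lies nearer to NC than WT replicates 2 and 3 do.

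LGALS1, the gene of galectin-1, had the opposite order. Its normalized CPM were 59.7, 77.8 and 69.7 in the WT replicates, 35.1, 30.01 and 31.6 in NC and 27.8, 31.3 and 19.6 in ESX1. All WT libraries were above all others, while the ranges of NC and ESX1 overlapped. The means were 69.1 ± 9.07 (SD, n = 3) in WT, 32.2 ± 2.63 in NC and 26.2 ± 6.01 in ESX1. On the log2 scale, the difference was -1.10 (standard error 0.160) for NC against WT, -1.38 (standard error 0.163) for ESX1 against WT and -0.28 (standard error 0.164) for ESX1 against NC. Both transfected groups were thus below WT. LGALS1 (ENSG00000100097.11) lies on the plus strand of chromosome 22 from 37675608 to 37679806, with no exon base shared with another gene.

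LGALS8, the gene of galectin-8, which binds glycans exposed on damaged vesicles, was nearly level. It had 57.6, 63.1 and 70.8 normalized CPM in the ESX1 replicates, 53.1, 56.4 and 57.4 in NC and 55.0, 58.0 and 53.7 in WT. The lowest ESX1 library was just above the highest NC library and within the range of WT. The fitted log2 difference was 0.20 (standard error 0.117) for ESX1 against WT, 0.19 (standard error 0.117) against NC and 0.00 (standard error 0.117) between NC and WT. LGALS8 (ENSG00000116977.18) lies on the plus strand of chromosome 1 from 236518000 to 236552981. Of its 9710 exon bases, 30.6% are shared with HEATR1, LGALS8-AS1 and RP11-385F5.4 on the opposite strand, and counting did not use the strand.

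CD44 was near the limit of detection. It had 30, 16 and 17 counts in the ESX1 replicates, 8, 9 and 0 in NC and 11, 0 and 0 in WT, or 3.04, 1.61 and 3.14, then 0.829, 0.965 and 0, then 1.20, 0 and 0 normalized CPM. All ESX1 libraries were above all control libraries. A count of 0 allows up to 3 counts in a library, by counting error alone, so CD44 transcripts cannot be called absent from the libraries at 0. On the log2 scale, ESX1 differed by 2.57 (standard error 0.928) from WT and by 2.09 (standard error 0.872) from NC, and NC and WT differed by 0.48 (standard error 1.05), within the error. CD44 passed the filter on low counts only through the ESX1 group, with all 3 ESX1 libraries, 1 WT and 0 NC libraries above its minimum of 1.08 CPM, so that it had to differ to be tested at all. The difference from WT passed the threshold of an adjusted p under 0.05 and 2-fold in edgeR but not in DESeq2, and in 3 of the 9 edgeR fits that dropped 1 library. WT replicate 1 held all 11 WT counts. Set against 3 counts in each of the other WT libraries, the ESX1 mean of 2.597 normalized CPM was 6.92-fold higher. This value leaves out WT replicate 1 and the counting error of the ESX1 libraries, so it is no lower bound. The fit on all 9 libraries gave 5.93-fold. Because of the filter, neither value is support for a change. CD44 (ENSG00000026508.17) lies on the plus strand of chromosome 11 from 35138870 to 35232402, with 0.835% of 10057 exon bases shared with another gene.

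A gene was called where edgeR's quasi-likelihood test gave a Benjamini-Hochberg adjusted p under 0.05 over the 18452 genes tested and the fold change reached 2. All 5 members were tested. Against WT, 4 of 5 members were called in ESX1, beside 11.5% of all genes. SPP1, LGALS3 and CD44 were higher (6.78% of all genes) and LGALS1 was lower (4.77%). Against NC, SPP1 and LGALS3 were called, both higher, 2 of 5 members beside 1.78% of all genes, of which 1.08% were higher and 0.699% lower. Between NC and WT, LGALS1 was called lower, 1 of 5 members beside 5.27%, with 2.15% lower and 3.12% higher. SPP1 and LGALS3 were the 2 members called against both controls, and 1.53% of all genes were, 0.948% higher and 0.585% lower in both. Since the members were chosen with these values known, these counts carry no weight of their own. The ranges of the groups did not overlap for 4 members against WT (40.3% of all genes), for 4 against NC (22.6%) and for 3 between NC and WT (37.6%). The median log2 fold change of all tested genes was 0.01, 0.00 and 0.01 in the comparisons of ESX1 with WT, ESX1 with NC and NC with WT. The comparisons share their libraries and are not independent of each other.

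**Figure D3:**
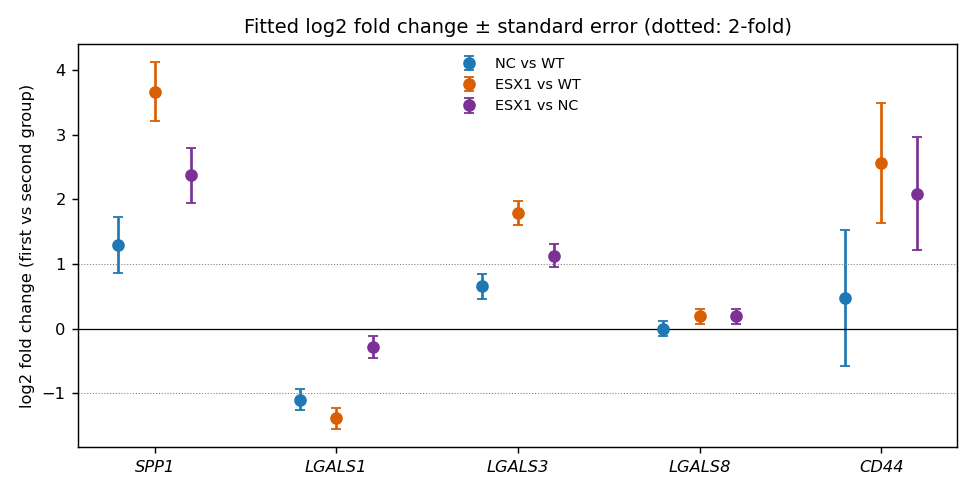
Fitted log2 fold change (vertical axis, first group against second) of the 5 genes in NC against WT, ESX1 against WT and ESX1 against NC, with standard errors as bars and dotted lines at 2-fold. SPP1 reaches 3.67 against WT, LGALS1 is below 0 in all 3 comparisons, LGALS8 stays within 0.20, and the standard errors of CD44 are the widest.

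Per kb of exon, the order of the members differed between the groups. In WT, LGALS1 came first with 62.9 ± 8.26 normalized CPM per kb (SD, n = 3). SPP1 (8.05 ± 8.28), LGALS3 (5.78 ± 1.05) and LGALS8 (5.72 ± 0.228) followed, with overlapping ranges. In NC, LGALS1 (29.3 ± 2.39) was above SPP1 (19.9 ± 0.257), LGALS3 (9.09 ± 1.35) and LGALS8 (5.73 ± 0.233), and the ranges of these neighbours did not overlap. In ESX1, SPP1 came first with 103 ± 21.5 normalized CPM per kb. LGALS1 (23.9 ± 5.47) and LGALS3 (19.8 ± 3.66) overlapped there, and LGALS8 had 6.57 ± 0.681. CD44 was last in each group, with 0.258 ± 0.0852 normalized CPM per kb in ESX1, 0.0595 ± 0.0519 in NC and 0.0398 ± 0.0690 in WT. LGALS8 counts over an exon length that includes the shared bases, so its level per kb may be understated.

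The remaining genes of these pathways were taken from lists of 83 genes, and the results below come from the same edgeR fit. Of these, 58 were tested. The lists were chosen with earlier results of these data known, so their shares of called genes carry no weight of their own. Against WT, 6 were called higher and 5 lower in ESX1, 19.0% of those tested beside 11.5% of all genes. LGALS14, among the 6, passed the filter on low counts only through the ESX1 group. Against NC, 1 was higher and 2 lower, 5.17% beside 1.78%. Between NC and WT, 3 were higher and 1 lower in NC, 6.90% beside 5.27%. Without WT replicate 1 the counts were 16 against WT, where MEPE, B4GALT1, ST6GAL1, ST3GAL1 and CEMIP came in, and 5 between NC and WT, where HAS2 came in. Without NC replicate 3, edgeR called 0 against NC, with 17 of 60 at an unadjusted p under 0.05. By limma on the authors' log2 values 0 of 58 were called against NC as well, with 22 at an unadjusted p under 0.05, and by DESeq2 3. At an adjusted p under 0.05 with no minimum fold, 28 of the 58 differed from WT, 11 from NC, and 25 between NC and WT. Of all 18452 genes tested, 5306, 784 and 3158 did so in the same comparisons. For an unadjusted p, no share over all genes was computed. The median log2 fold change over the 58 genes was 0.01 against WT, -0.07 against NC and -0.03 between NC and WT.

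Of 13 other galectins, 3 had enough counts for testing. LGALSL, a galectin-like protein, had the highest level per kb of them, with 25.5 ± 1.97 normalized CPM (SD, n = 3) in ESX1, 21.4 ± 0.910 in NC and 15.6 ± 2.51 in WT. It exceeded WT by 0.72 on the log2 scale (edgeR adjusted p = 0.00347), which is under 2-fold, and NC by 0.26 (edgeR adjusted p = 0.476). LGALS14, a placental galectin, was called higher in ESX1 than in WT, at 2.47 (standard error 0.722, edgeR adjusted p = 0.0163). It rested on 40, 28 and 11 counts in ESX1, 17, 3 and 6 in NC and 11, 0 and 3 in WT, and it was called in 6 of the 9 leave-one-out fits, in which every library was dropped in turn. As for CD44, LGALS14 passed the filter on low counts only through the ESX1 group, with all 3 ESX1 libraries but 1 NC and 1 WT library above the minimum, so that it had to differ to be tested. Its call is no support for a change. Without WT replicate 1, the value of LGALS14 was 3.97. LGALS14 has close relatives beside it on chromosome 19, so reads could be shared among copies. CLC, the galectin of Charcot-Leyden crystals, differed in ESX1 by 0.08 from WT and by 0.11 from NC on the log2 scale. The other 10 had at most 19 counts in any library, and LGALS9B and LGALS13 had 0 in all.

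Osteopontin belongs to the SIBLING family of acidic phosphoproteins encoded in a cluster on chromosome 4. Of the others, IBSP, DMP1 and DSPP were not tested and had at most 6 counts in a library. MEPE had between 2 and 23 counts. ESX1 was above WT by 1.30 on the log2 scale (standard error 0.622, edgeR adjusted p = 0.128) and above NC by 0.31 (edgeR adjusted p = 0.859). Without WT replicate 1, the value of MEPE against WT was 2.37 and was called.

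Osteopontin acts through integrins. Of the 4 beta subunits listed, ITGB1 and ITGB5 were abundant, with ITGB1 at 643 ± 54.2 normalized CPM in WT and 433 ± 74.8 in ESX1 and ITGB5 at 334 ± 60.3 and 263 ± 36.2 (SD, n = 3). In ESX1 against WT, ITGB1 was at -0.57 on the log2 scale (edgeR adjusted p = 0.00185), under 2-fold, and ITGB5 at -0.34 (adjusted p = 0.0766, same test). Against NC, ITGB1 was at -0.18 (adjusted p = 0.507, same test) and ITGB5 at -0.18 (adjusted p = 0.601, same test). The alpha subunit ITGAV was abundant as well, with a mean of 264.5 normalized CPM over all libraries. ESX1 was at 0.29 against WT (adjusted p = 0.155, same test) and -0.22 against NC (adjusted p = 0.518, same test) for ITGAV. NC was above WT for ITGAV by 0.51 (adjusted p = 0.0243, same test), under 2-fold. Of the 6 integrin genes tested, ITGA5 and ITGA9 were called in ESX1 against WT, beside 11.5% of all genes, and 0 against NC, beside 1.78%. ITGA5, the alpha subunit of the main fibronectin receptor, had 54.6, 32.4 and 28.6 normalized CPM in the ESX1 replicates, 39.3, 24.3 and 33.8 in NC and 15.0, 13.0 and 14.7 in WT. Both transfected groups were above WT and overlapped each other. The log2 fold change of ITGA5 was 1.44 for ESX1 (edgeR adjusted p = 0.000165) and 1.19 for NC (adjusted p = 0.00189, same test), and 0.26 between ESX1 and NC (adjusted p = 0.634, same test). ITGA9, which pairs with beta1 and binds a cryptic site of osteopontin, went the other way. It had 84.4, 85.4 and 64.6 normalized CPM in ESX1, 119, 121 and 119 in NC and 170, 178 and 175 in WT. The 3 groups of ITGA9 did not overlap, and ESX1 was at -1.15 on the log2 scale against WT (edgeR adjusted p = 2.04e-06) and -0.61 against NC (adjusted p = 0.00500, same test). ITGB6 was low, with 7 to 23 counts over all libraries, and was not called. ITGB3, ITGA4 and ITGA8 had too few counts for testing, ITGB3 with at most 9, and for ITGB3 51.6% of the exon bases lie in another gene's exons.

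Among 10 genes that process or regulate osteopontin, 5 were tested. ETS1, a transcription factor of the ETS family known to act on the SPP1 promoter, was called against both controls. It had 13.3, 8.55 and 7.20 normalized CPM in the ESX1 replicates, 4.35, 4.39 and 2.54 in NC and 4.15, 4.81 and 3.24 in WT. The log2 fold change of ETS1 was 1.28 against WT (standard error 0.302, edgeR adjusted p = 0.00423) and 1.38 against NC (standard error 0.300, adjusted p = 0.0122, same test). NC and WT differed by -0.10 (standard error 0.318). The call against NC stood in 7 and that against WT in 8 of the 9 leave-one-out fits. RUNX2, whose motif stands upstream of SPP1, was at 1.25 to 3.50 normalized CPM over all libraries, and ESX1 was at -0.36 on the log2 scale against WT (edgeR adjusted p = 0.593) and at -0.03 against NC (edgeR adjusted p = 0.985). FAM20C, the kinase that phosphorylates osteopontin, was at -0.85 on the log2 scale in ESX1 against WT (edgeR adjusted p = 0.00160), under 2-fold. Against NC, FAM20C was at -0.375 (edgeR adjusted p = 0.308). Of the proteases that cleave osteopontin, MMP7 had 0 counts in every library and MMP3, MMP12 and F2 (thrombin) were too low to be tested.

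Of 9 glycoproteins bound by galectins, 8 were tested. LGALS3BP, the galectin-3-binding glycoprotein, was highest in NC. It had 16.5, 18.1 and 15.5 normalized CPM in the NC replicates, 4.06, 11.3 and 6.10 in ESX1 and 2.29, 5.68 and 4.07 in WT. The log2 fold change of LGALS3BP was 2.08 for NC against WT (standard error 0.337, edgeR adjusted p = 0.000507) and -1.21 for ESX1 against NC (standard error 0.317, adjusted p = 0.0379, same test). ESX1 exceeded WT by 0.87 (edgeR adjusted p = 0.0744). The fall against NC was called in 4 of the 9 leave-one-out fits. SLC3A2, the heavy chain of amino acid transporters, was upregulated by 1.51 (log2) in comparison to WT (edgeR adjusted p = 2.85e-06), with 412 ± 113 normalized CPM in ESX1, 261 ± 20.3 in NC and 144 ± 11.7 in WT (SD, n = 3). ESX1 exceeded NC by 0.655 (edgeR adjusted p = 0.0229) and NC exceeded WT by 0.86 (edgeR adjusted p = 0.00142), both under 2-fold. BSG (basigin) was the most abundant of the list and was at -0.40 against WT and -0.15 against NC on the log2 scale, neither of them called. MCAM was at -0.96 against WT (edgeR adjusted p = 0.000161) and -0.96 against NC (edgeR adjusted p = 0.00106), just under 2-fold. NC and WT differed by 0.004 for MCAM. CD63 was at -0.71 against WT (edgeR adjusted p = 0.000464) and -0.22 against NC (edgeR adjusted p = 0.432).

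Galectins read glycans built by branching and extending enzymes. Of 11 such genes, 10 were tested and 2 were called, both lower in ESX1 than in WT, beside 4.77% of all genes. GCNT1, which starts core branches of O-glycans, had 16.8, 23.4 and 13.3 normalized CPM in ESX1, 34.6, 34.8 and 37.4 in NC and 51.9, 56.0 and 57.8 in WT. GCNT1 in ESX1 was at -1.61 on the log2 scale against WT (edgeR adjusted p = 2.78e-06) and -0.98 against NC (adjusted p = 0.00266, same test), and the 3 groups did not overlap. B3GNT2, which elongates poly-N-acetyllactosamine, a preferred galectin ligand, had -1.22 against WT (edgeR adjusted p = 3.01e-06) and -0.34 against NC (adjusted p = 0.181, same test). NC was itself below WT for B3GNT2 by -0.88 (adjusted p = 0.000224, same test). MGAT5, the branching enzyme of N-glycans, had -0.57 against WT (adjusted p = 0.00152, same test) and -0.03 against NC, and MGAT4B was at 0.01 and -0.07. ST6GAL1 was also lower, at -0.99 against WT (adjusted p = 3.39e-06, same test) and -0.60 against NC (adjusted p = 0.00279). Others were higher. Against WT, ST3GAL1 had 0.76 (adjusted p = 0.0148), B4GALT1 0.80 (adjusted p = 0.00598) and MAN2A1 0.39 (adjusted p = 0.0245). Against NC they had 0.82 (adjusted p = 0.0401), 0.71 (adjusted p = 0.0501) and 0.38 (adjusted p = 0.0926). All of these were under 2-fold. For MGAT2, 91.9% of the exon bases are shared with another gene and read pairs over more than 1 gene were not assigned, so its low count does not measure its transcript.

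Galectins also mark damaged vesicles for autophagy. Of the 6 genes of that pathway examined, all were tested and 1 was called, in ESX1 against WT, beside 11.5% of all genes. TFEB, a transcription factor of lysosomal genes, was higher in ESX1 than in WT by 1.20 on the log2 scale (standard error 0.385, edgeR adjusted p = 0.0268), and the value against NC was 1.10 (edgeR adjusted p = 0.126). The call of TFEB stood in 6 of the 9 leave-one-out fits. TAX1BP1 had 0.57 against WT (edgeR adjusted p = 0.000523) and PDCD6IP (ALIX) 0.04 (adjusted p = 0.797, same test). Against NC, TAX1BP1 had 0.23 (adjusted p = 0.272, same test) and PDCD6IP 0.17 (adjusted p = 0.459, same test). CALCOCO2 had 0.72 (adjusted p = 0.00354, same test) and OPTN 0.80 (adjusted p = 0.00126, same test) against WT, under 2-fold. NC itself exceeded WT by 0.495 for CALCOCO2 (adjusted p = 0.0479, same test) and by 0.82 for OPTN (adjusted p = 0.0021, same test). ESX1 against NC was at 0.22 (adjusted p = 0.56, same test) and -0.02 (adjusted p = 0.975, same test).

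On the side of CD44, 9 of 11 genes of hyaluronan and other ligands were tested. HAS2, which synthesizes hyaluronan, was called lower in ESX1 against both controls. It had 4.36, 5.93 and 3.51 normalized CPM in the ESX1 replicates, 8.29, 11.6 and 9.36 in NC and 17.4, 18.2 and 22.1 in WT, and the 3 groups did not overlap. The log2 fold change of HAS2 was -2.03 against WT (standard error 0.232, edgeR adjusted p = 6.09e-06) and -1.05 against NC (standard error 0.236, adjusted p = 0.0150, same test). The call against NC stood in 5 of the 9 leave-one-out fits. HAS3, another hyaluronan synthase, was lower in NC than in WT by -1.84 (edgeR adjusted p = 0.0119) at 5 to 37 counts over all libraries. HYAL2, a hyaluronidase with 11.2% of its exon bases shared with TUSC2, had -1.03 against WT (adjusted p = 0.00184, same test). It had -0.36 against NC (adjusted p = 0.458, same test), and NC was itself at -0.66 against WT (adjusted p = 0.0391, same test).

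VCAN, the hyaluronan-binding proteoglycan versican, was highest in NC, with 108, 106 and 116 normalized CPM in the NC replicates, 60.3, 78.9 and 47.1 in ESX1 and 36.8, 32.2 and 24.6 in WT. On the log2 scale, VCAN was at 1.82 for NC against WT (edgeR adjusted p = 5.60e-06), 1.002 for ESX1 against WT (adjusted p = 0.000325, same test) and -0.82 for ESX1 against NC (adjusted p = 0.00700, same test), the last under 2-fold. The call of VCAN against WT stood in 7 of the 9 leave-one-out fits. HMMR, the hyaluronan-mediated motility receptor, and TMEM2, a cell surface hyaluronidase, were the most abundant genes of the list per kb. HMMR was at -0.78 on the log2 scale in ESX1 against WT (edgeR adjusted p = 0.000726), under 2-fold, and TMEM2 at 0.46 (edgeR adjusted p = 0.0706). Against NC, HMMR was at -0.32 (edgeR adjusted p = 0.295) and TMEM2 at -0.255 (edgeR adjusted p = 0.553). SRGN (serglycin), a CD44 ligand of blood cells, had 0 counts in every library.

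Of 10 genes that cleave CD44, link it to actin or splice it, all were tested and 0 were called in any of the 3 comparisons by edgeR, DESeq2 or limma. Over all genes, edgeR called 11.5% against WT, 1.78% against NC and 5.27% between NC and WT. In edgeR, 3 had an unadjusted p under 0.05 against WT, 2 against NC and 4 between NC and WT. Some also passed an adjusted p under 0.05, all under 2-fold. They were MSN, ESRP1 and ADAM17 (0.32, edgeR adjusted p = 0.0376) against WT and MSN against NC. Between NC and WT they were NF2 (0.43, edgeR adjusted p = 0.0405) and ESRP1 (-0.38, edgeR adjusted p = 0.0487). The counts over all genes at this threshold are given above. MSN (moesin), which links CD44 to actin, had 66.1 ± 4.34 normalized CPM in ESX1, 98.5 ± 3.52 in NC and 115 ± 12.6 in WT (SD, n = 3). ESX1 was at -0.80 on the log2 scale against WT (edgeR adjusted p = 6.54e-05) and at -0.57 against NC (edgeR adjusted p = 0.00662), both under 2-fold. EZR (ezrin) had 289 ± 30.3 normalized CPM in ESX1, 354 ± 11.9 in NC and 332 ± 49.7 in WT (SD, n = 3). ESRP1, an epithelial splicing factor of CD44, had 229 ± 30.7, 235 ± 24.0 and 306 ± 37.5, and ESX1 was at -0.42 on the log2 scale against WT (edgeR adjusted p = 0.0201), under 2-fold. Against NC, ESRP1 was at -0.04 (edgeR adjusted p = 0.932).

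**Figure D4:**
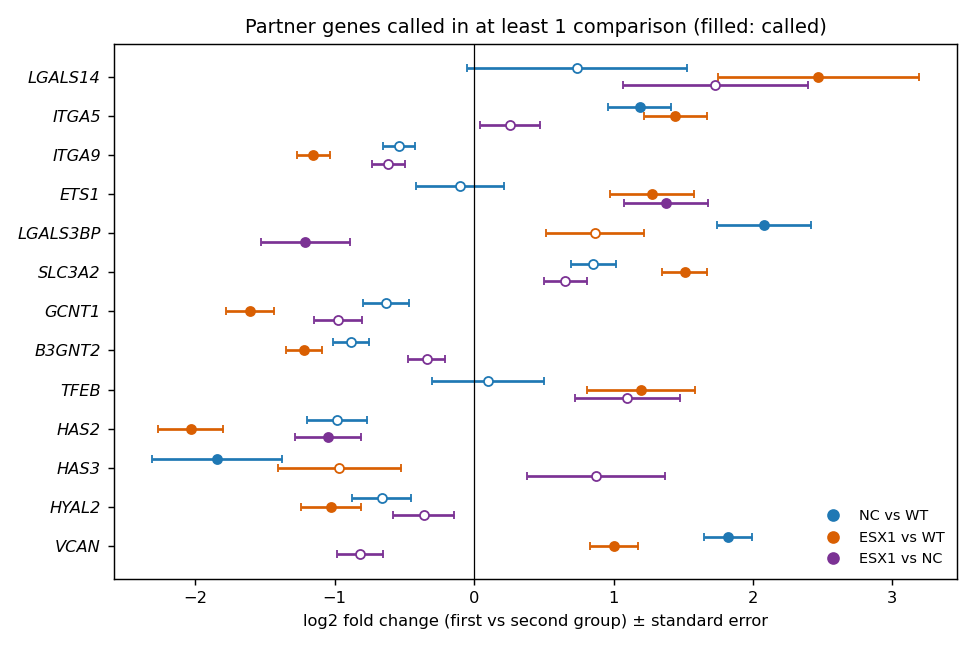
Log2 fold change with standard error (horizontal axis, first group against second) of the 13 listed partner genes called in at least 1 of the 3 comparisons, with filled symbols where the gene was called. ETS1 and HAS2 are filled for ESX1 against both WT and NC, while LGALS3BP and VCAN are highest in NC and so lie to the right for NC against WT and to the left for ESX1 against NC.

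SPP1, LGALS3 and CD44 are also transcripts of macrophages, so macrophage markers were examined. Of 8 markers, LYZ and TYROBP had 0 counts in every library, and PTPRC, CD68 and AIF1 had at most 1. For CD68, 85.8% of the exon bases are shared with other genes, so its count says little. The summed level of the list was 0.729 to 3.24 normalized CPM in WT, 3.73 to 5.60 in NC and 3.62 to 7.20 in ESX1. Of the 3 markers tested, CSF1R was called higher in ESX1 than in WT (6.78% of all genes), with 55, 21 and 11 counts against 12, 1 and 9. The summed level of 7 fibroblast markers was 197 to 357 in WT, 139 to 175 in NC and 111 to 230 in ESX1. Most of it was COL1A2, with a mean of 168.7 normalized CPM over all libraries, beside 12.8 for COL1A1 and 7.25 for THY1. DCN, LUM, PDGFRA and PDGFRB had at most 31 counts in any library. COL1A2 was at -0.90 on the log2 scale in ESX1 against WT (edgeR adjusted p = 0.01). It was also at -0.90 in NC against WT (edgeR adjusted p = 0.0163), both under 2-fold. Among the 4 tested, COL1A1 was called higher in ESX1 and in NC than in WT (6.78% and 3.12% of all genes). THY1 was called lower in ESX1 than in WT (4.77%) and than in NC (0.699%), and lower in NC than in WT (2.15%). Of the 10 seminoma markers, 7 were called lower in ESX1 than in WT (4.77% of all genes). NANOG alone was called lower in ESX1 than in NC (0.699% of all genes), and KIT alone lower in NC than in WT (2.15%). Against NC, all 10 were below 0 on the log2 scale, with a median of -0.64, and 6 had an adjusted p under 0.05 in edgeR, most of them under 2-fold. Of all 18452 genes tested, 784 had such an adjusted p against NC, in either direction. The part of these marker changes in the values above was not tested.

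The 3 genes closest to each member were found by Pearson's correlation of log2 CPM over the 9 libraries, which share their group structure, so the values are descriptive. Closest to SPP1 were NHSL2 (r = 0.992), RHOBTB3 (r = 0.989) and DNAJC6 (r = 0.982), an auxilin of clathrin uncoating. RHOBTB3 had 256 ± 9.40 normalized CPM in ESX1, 132 ± 14.6 in NC and 68.6 ± 43.0 in WT (SD, n = 3), with a wide spread in WT as for SPP1. Closest to LGALS3 were LINC00662 (r = 0.982), HRH2 (r = 0.982), the histamine H2 receptor, and DCAF6 (r = 0.981). Closest to LGALS1 were TPI1 (r = 0.997), a glycolytic enzyme, HIST1H3F (r = 0.991), a replication-dependent histone gene, and RASSF2 (r = 0.990). TPI1 had 1972 ± 119 normalized CPM in WT, 1243 ± 91.7 in NC and 1093 ± 142 in ESX1. Closest to LGALS8 were DIEXF (r = 0.997), BROX (r = 0.984) and NEK7 (r = 0.975), each with little difference between NC and WT. Closest to CD44 were TUBA4A (r = 0.982), DGUOK-AS1 (r = 0.977) and TMEM106A (r = 0.964), all with a mean of at most 3.01 normalized CPM. Among the members, r was 0.937 between SPP1 and LGALS3 and -0.839 between SPP1 and LGALS1.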

How the data were processed

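RNA was sequenced from 9 TCam-2 samples (3 WT, 3 NC, 3 ESX1), grouped by their titles. The authors aligned read pairs with HISAT2 2.0.5 to GRCh38, and per the file headers counted them per gene with featureCounts 1.5.2 on GENCODE 26, without strand and by default leaving out pairs that overlap several genes. The labels name featureCounts 1.6.5. These deposited counts are not normalized. The authors also deposited log2 values normalized with DESeq2, whose version and transformation are not given in the sources used here. They hold the 63856 genes in the same order, with the same ranks in every sample. They enter only 1 alternative.

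The tests used edgeR 4.0.16 under R 4.3.3 (filterByExpr, TMM, glmQLFit over all 9 samples, glmQLFTest). DESeq2 1.42.0 and limma 3.58.1 served as alternatives. Standard errors are the size of the log2 fold change divided by the square root of F. The script was tested on simulated data. Members and lists were chosen with earlier results of these data known. Named are the members, ESX1, listed genes called in at least 1 comparison and the 2 most abundant per kb of each list. The 3 nearest genes of each member are named as well. Named beside them are ITGB3, IBSP and further low genes, MGAT2, MGAT5, B4GALT1, ST6GAL1, ST3GAL1, MAN2A1, CEMIP and RUNX2. So are ITGB6, ITGAV, MSN, ADAM17, NF2, MCAM, CD63, CALCOCO2, OPTN and the markers. These were added for their role, their low counts or their values, after their values were seen. Replicates are biological by the paper's methods. Intervals were not computed for counts, and a floor of 3 counts covers counting error only.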

Additional observations from a re-analysis of the deposited data

How the results depend on the processing

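Depth limits CD44 and LGALS14, whose values rest on a few counts per library. With limma on the authors' log2 values, 937 genes were called against WT, 177 against NC and 338 between NC and WT, and of the 58 partner genes 7, 0 and 2. For these partner genes edgeR and DESeq2 each called 11, 3 and 4. The split into higher and lower moved with limma from 1251 and 880 to 487 and 450 against WT, from 199 and 129 to 111 and 66 against NC, and from 576 and 397 to 166 and 172 between NC and WT. With no minimum fold, the counts were 5306, 784 and 3158 for all genes and 28, 11 and 25 for partner genes. Of the members, CD44 against WT was not called by DESeq2 (2.70) and was called against NC with no filter beyond 1 count (2.08). SPP1 between NC and WT was called with limma on the authors' values (1.55), with no filter (1.31), with upper-quartile factors (1.37) and with the replicate block (1.57). With each library left out in turn, all genes called ranged from 1772 to 2529 against WT, from 209 (without NC replicate 3) to 434 (without ESX1 replicate 2) against NC and from 686 (without WT replicate 2) to 1338 (without WT replicate 1) between NC and WT. Partner genes called ranged from 9 to 16, from 0 (without NC replicate 3) to 6 (without ESX1 replicate 2) and from 3 to 5. The value of SPP1 lay between 3.16 and 4.99 against WT, and between 0.79 and 2.62 for NC against WT, both highest without WT replicate 1, where the latter passed the call, as it did in 2 of 9 fits. LGALS3 against NC ranged from 0.98 to 1.26. CD44 ranged from 1.95 to 7.502 against WT, from 1.51 to 2.595 against NC and from -0.14 to 5.42 between NC and WT; the highest values against WT arise without WT replicate 1, where WT holds no counts, and are no bounds. The sign of CD44 between NC and WT turned without NC replicate 2 (-0.01), WT replicate 2 (0.00) or WT replicate 3 (-0.14), and that of LGALS8 without ESX1 replicate 2 (0.00), NC replicate 3 (-0.01), WT replicate 1 (-0.01) or WT replicate 3 (-0.026), with 0.05 as its highest value. Same-numbered samples share only a number: their deviations from the group means had correlations across genes between -0.03 and 0.193. The replicate block took VCAN against WT to 0.99, under 2-fold, and changed no call of a member other than that of SPP1 above. Of 254 alternative values of the members 232 kept their sign and their side of the call, as did 269 of 306 for the partner genes, where 37 lost the call and 0 turned sign. The causes of these changes were not tested.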
